A study of Mus musculus with 30 samples.

Results

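The respiratory chain and the ATP synthase are described here by the spots of a mouse cDNA array whose gene name begins with NADH dehydrogenase, succinate dehydrogenase, ubiquinol, cytochrome c oxidase, cytochrome c-1, cytochrome c or ATP synthase. There are 68 such spots, for 46 genes, among 22830 spots that carry a gene name or a clone. The rule that picks them reads the spot names and no measured value, but the group was proposed with earlier results of these data known. The RNA came from AtT-20 cells, which derive from a mouse pituitary tumour and belong to the corticotropes, the cells that make ACTH. It was taken at 5 times, 1, 3, 6, 12 or 24 h after 100 nM CRH (corticotropin-releasing hormone, a human/rat peptide) was added. RNA of untreated AtT-20 cells of the same time point was hybridised on the same array in the other dye. Both kinds of cells had been kept without serum for 18 h. Each time point has 6 arrays, and the dyes Cy3 and Cy5 were exchanged on 3 of them, so there are 30 arrays in all. The 6 arrays of a time point carry 1 pair of RNA extracts of 1 cell line. Every p-value from the 30 arrays therefore measures the spread between hybridisations and not between cultures.

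The respiratory chain passes electrons along the inner mitochondrial membrane. Complex I (NADH dehydrogenase) and complex II (succinate dehydrogenase) take them from the products of the citric acid cycle, complex III (ubiquinol-cytochrome c reductase) hands them to the small carrier cytochrome c, and complex IV (cytochrome c oxidase) passes them to oxygen. The proton gradient built on the way drives complex V, the ATP synthase, whose membrane part turns as protons pass and whose soluble head makes ATP. All members found on this array are encoded in the nucleus, and their products are imported into the mitochondrion.

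The promoters shown are those of the 5 member genes with a spot past the time test described below (p under 0.01). The adjusted p was under 0.05 for 3 of these spots. These are the members the later tests turn on. The sequences are the 250 bases before the RefSeq start of each gene in build GRCm38.p6, all on the minus strand, written from 5′ to 3′. Capitals mark matches to the motifs searched, which were found in 3 of the 5.
Atp5l, chr9:44920743-44920992: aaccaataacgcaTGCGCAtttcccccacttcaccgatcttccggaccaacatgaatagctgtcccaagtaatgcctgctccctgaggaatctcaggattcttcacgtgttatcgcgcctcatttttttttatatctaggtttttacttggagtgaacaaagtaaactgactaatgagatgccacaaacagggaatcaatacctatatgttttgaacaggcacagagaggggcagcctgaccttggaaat
Atp5j2, chr5:145191542-145191791: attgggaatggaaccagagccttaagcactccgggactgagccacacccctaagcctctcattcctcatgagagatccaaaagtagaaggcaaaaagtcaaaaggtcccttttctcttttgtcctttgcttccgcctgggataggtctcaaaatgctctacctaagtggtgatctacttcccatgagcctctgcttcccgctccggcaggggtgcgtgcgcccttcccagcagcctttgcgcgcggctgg
Atp5o, chr16:91931631-91931880: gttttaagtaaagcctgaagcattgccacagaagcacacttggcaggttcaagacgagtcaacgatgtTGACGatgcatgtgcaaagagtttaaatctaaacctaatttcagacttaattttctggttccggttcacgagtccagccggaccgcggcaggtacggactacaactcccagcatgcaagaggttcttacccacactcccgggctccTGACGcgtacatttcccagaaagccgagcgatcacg
Atp5g1, chr11:96075632-96075881: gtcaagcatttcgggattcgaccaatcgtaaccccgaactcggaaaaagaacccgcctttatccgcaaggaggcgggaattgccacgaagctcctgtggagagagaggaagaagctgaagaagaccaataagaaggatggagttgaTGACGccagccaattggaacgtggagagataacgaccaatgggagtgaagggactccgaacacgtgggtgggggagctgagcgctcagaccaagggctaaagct
Ndufs4, chr13:114388095-114388344: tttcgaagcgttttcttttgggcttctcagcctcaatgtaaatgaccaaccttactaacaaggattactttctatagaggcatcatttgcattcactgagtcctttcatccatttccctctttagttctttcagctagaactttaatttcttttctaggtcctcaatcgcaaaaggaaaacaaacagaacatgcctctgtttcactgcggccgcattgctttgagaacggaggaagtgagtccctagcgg

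The window of Atp5l holds TGCGCA, the core of the site bound by NRF-1, a regulator of nuclear genes for respiratory subunits, 237 bases before the start. The window of Atp5o holds TGACG, the short form of the cAMP response element, at 182 and at 36 bases before the start, and that of Atp5g1 holds it at 104 bases. Motifs were searched on both strands in the same 250 bases of the 36 member genes found in the RefSeq promoter table. TGCGCA, which is the same on both strands, was present for 8 of them (22.2%), beside 7.36% of the 27025 genes in the table. The short form TGACG or CGTCA was present for 10 of the 36 (27.8%), beside 19.8% of all genes. The full element TGACGTCA, which contains the short form, was present for Cycs only among the member genes, beside 1.77% of all genes. CCGGAAGT, a site of the ETS factor GABP, was in 0 of the 36 windows and in 3.23% of all. TCAAGGTCA, bound by estrogen-related receptors, was found for Atp5g3 (0.422% of all genes), and AAGATGGCG, bound by YY1, for Atp5j (0.711%). A match is a string of letters and not a binding site, and its absence says nothing about the factor.

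A spot counted as measured if neither of its channels fell into the dimmest 10% on any of the 30 arrays, which left 14375 spots of the series and 47 of the 68 members, for 34 of the 46 genes. Complex I kept 14 of 19 spots, complex II 2 of 2, complex III 5 of 8, cytochrome c 2 of 2, complex IV 8 of 17 and complex V 16 of 20. Of the 21 members not measured, 8 were dim in 1 of the 60 channels, 7 in 2 to 10 channels and 6 in more. The median intensity of a channel ranged from 458 to 2038 units and the median local background was at most 28.3. Of the corticotrope markers found by name, 4 of 5 genes were measured, Pomc and Tbx19 among them. So were 3 of 4 fibroblast genes, 1 of 2 leukocyte genes and growth hormone, so an intensity above this limit does not tell cell types apart here. On RNA from bulk cells, fewer transcripts per cell and fewer cells with them cannot be told apart.

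The values below are log2 ratios of CRH-treated over untreated RNA, averaged over the 6 arrays of a time point, so 0 means equal signal and a value below 0 means less signal after CRH. The members as a list lay below 0 at 1 h and above 0 at 3 h. Their median ratio was -0.13 at 1 h, with the medians of the 6 arrays between -0.19 and -0.032. It was 0.098 at 3 h, with array medians between 0.0026 and 0.17. At 6 h the median was -0.063, and it was -0.0086 at 12 h and 0.0033 at 24 h, with arrays on both sides of 0 at these 3 times. The array medians of 1 h and of 3 h did not overlap. Over all 14375 spots the median was 0.0045 at 1 h and -0.018 at 3 h. At 1 h 35 of the 47 members (74.5%) lay below 0, beside 48.9% of all spots. At 3 h 35 of the 47 (74.5%) lay above 0, beside 44.9% of all spots. Both held for 30 members (63.8%), beside 26.3% of all spots, and 36 members (76.6%) were higher at 3 h than at 1 h, beside 46.4%. Counted by gene, with the spots of a gene averaged, 29 of 34 genes were below 0 at 1 h and 26 above 0 at 3 h. At 6 h 34 members were below 0 (50.4% of all spots), at 12 h 25 (51.6%) and at 24 h 23 (52.7%).

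**Figure D1:**
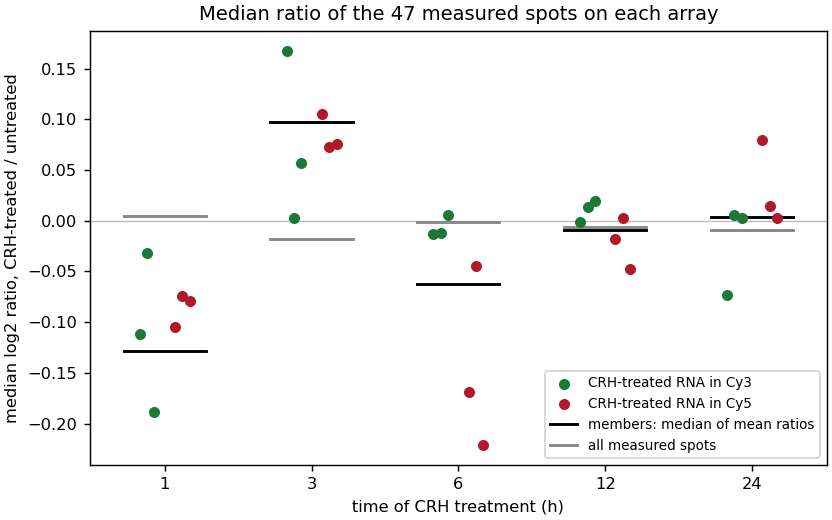
Median log2 ratio of the 47 measured member spots on each of the 30 arrays (points, by the dye of the CRH-treated RNA) against time; black bars give the members' median of the mean ratios and grey bars that of all 14375 measured spots. All 6 arrays of 1 h lie below 0 and all 6 of 3 h above 0, while the arrays of 6, 12 and 24 h lie on both sides.

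Of the 47 members, 27 were bright ones, so the counts were repeated within 3 ranges of mean intensity, dim, middle and bright, that hold equal numbers of all spots. Among these 27 members 23 were below 0 at 1 h and 21 above 0 at 3 h. Of all bright spots, 48.6% were below 0 at 1 h and 43.2% above 0 at 3 h. The 9 dim members had 3 below 0 at 1 h and 5 above 0 at 3 h. When the filter was dropped, the 21 members that had not been measured had a median of -0.0033 at 1 h and -0.028 at 3 h, with 11 below and 10 above 0. The middle range had 11 members, with 9 below 0 at 1 h and 9 above 0 at 3 h. The counts of the dim members thus lay near an even split, and those of the others did not.

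The 5 times were quantified on 4 days. The 3 h and 6 h arrays share a day that holds no other time, all 1 h arrays have a day of their own, and the 24 h arrays share theirs with 2 of the 12 h arrays. The step from 1 h to 3 h and the step between these days cannot be told apart. Between 3 h and 6 h, within the shared day, 4 of 34 members (11.8%) were higher at 3 h at p under 0.01, beside 1.59% of all spots, and 0 were lower, beside 1.28%. These 4 were Atp5l, Atp5g1, Atp5j2 and the Atp5o spot 4877, all of the ATP synthase. Members past the interaction of time and dye, described below, were left out of this count. Among those left out, Cox7a2l 4880, Ndufs3 21956, Ndufv2, Ndufa4 and Atp5pb 846 were also higher at 3 h under the same limit. Their ratios depended on the dye, and the share of all left-out spots under this limit was not counted. These calls thus have no comparison, and those without the interaction were all of the ATP synthase.

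By complex, the ATP synthase had a median that went from -0.19 to 0.16, with 14 of 16 spots higher at 3 h. Complex I went from -0.099 to 0.087, with 11 of 14 spots higher at 3 h. Complex III went from -0.041 to 0.15, with 5 of 5. Complex IV had medians of 0.012 and 0.016, and 3 of its 8 spots were higher at 3 h. These medians describe the lists and were not tested against each other. Over all times the highest mean of any member was 0.43 and the lowest -0.40, or 1.35-fold higher and 1.32-fold lower.

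**Figure D2:**
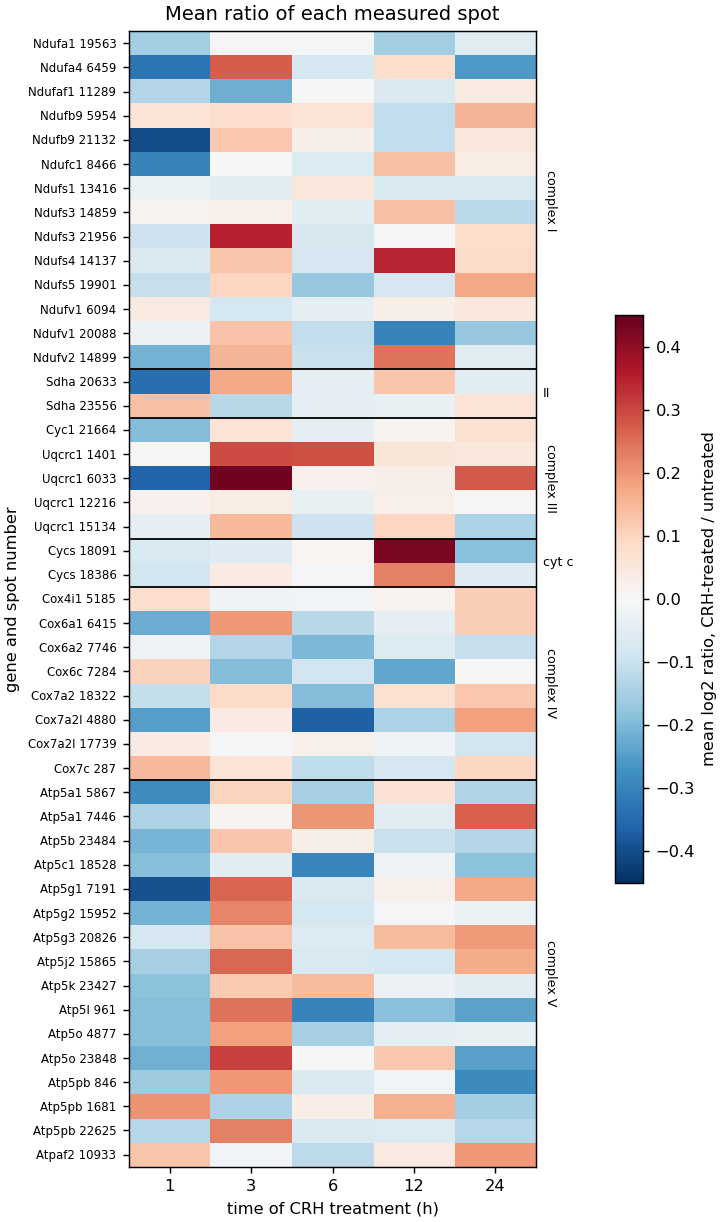
Mean log2 ratio (colour, from blue below 0 to red above 0) of each of the 47 measured spots, ordered by complex, gene symbol and spot number, at the 5 time points. Most spots of complexes I, III and V are blue at 1 h and red at 3 h, and the range over all cells of the map is -0.40 to 0.43.

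In complex I the spot with the highest mean over the 5 times was that of Ndufs4, an accessory subunit, and the lowest was the Ndufv1 spot 20088, for the flavoprotein that binds NADH. With the spots of a gene averaged the lowest gene was Ndufaf1, an assembly factor, with means from -0.22 at 3 h, when all 6 arrays were below 0, to 0.04 at 24 h. Ndufv1 on spot 20088 had a mean of -0.30 ± 0.18 (SD, n = 6 arrays) at 12 h and -0.17 ± 0.11 at 24 h, with all 6 arrays below 0 at both times. The time test of Ndufv1 20088, described below, gave p = 0.019 (n = 30 arrays), which missed 0.01. On the other Ndufv1 spot, 6094, the ratio was 0.03 at 12 h and 0.05 at 24 h, with arrays on both sides of 0. The 2 spots of this gene thus gave different values at the late times.

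Complex II was represented by Sdha, the flavoprotein that oxidises succinate, on 2 spots. On spot 20633 the 6 arrays of 1 h ranged from -0.48 to -0.04 with a median of -0.38, all below 0, and the mean at 3 h was 0.17. On spot 23556 the 1 h arrays ranged from -0.30 to 0.93 with a median of 0.07, and the mean at 3 h was -0.12. Neither spot passed the time test (p = 0.017 and p = 0.73, n = 30 arrays).

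In complex III, Uqcrc1 encodes a core protein and Cyc1 the cytochrome c1 that passes electrons on to cytochrome c. Cyc1 went from -0.20 at 1 h to 0.06 at 3 h and stayed within 0.07 of 0 later (time test p = 0.17, n = 30 arrays). Uqcrc1 on spot 1401 had a mean of 0.29 at both 3 h and 6 h, and of 0.14 over the 5 times. Uqcrc1 on spot 6033 had the widest swing, from -0.36 ± 0.56 at 1 h, with 1 of 6 arrays above 0, to 0.43 ± 0.33 at 3 h, with 6 of 6. The arrays of the 2 times overlapped, from -0.997 to 0.52 and from 0.01 to 0.91, and the time test gave p = 0.019 (n = 30 arrays). Cytochrome c itself, Cycs, had its highest means at 12 h, 0.42 on spot 18091 and 0.23 on spot 18386. Its ratios depended on the dye, as given below.

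In complex IV the highest gene over the 5 times was Cox4i1, a subunit involved in regulation by ATP, with means between -0.02 and 0.11. With the spots of a gene averaged the lowest was Cox6a2, the form of subunit VIa known from heart and skeletal muscle, with means between -0.20 and -0.01. The lowest spot was Cox7a2l 4880, for a protein that links complexes III and IV into supercomplexes. Its 6 arrays of 6 h ranged from -0.49 to -0.21 with a median of -0.41, and its 24 h arrays from -0.06 to 0.38 with a median of 0.19. The arrays of these times did not overlap, but the spot passed the interaction of time and dye (p = 0.0062, n = 30 arrays), so it was left out of the time test. The authors' published list of ranked genes holds this spot. That list was drawn from spots without a dye interaction that passed their time test, so their processing kept it. The other Cox7a2l spot, 17739, had means between -0.09 and 0.04 at all times.

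In the ATP synthase the gene with the highest mean was Atp5g3, 1 of the genes for the ring subunit c, with means from -0.08 at 1 h to 0.19 at 24 h (time test p = 0.12, n = 30 arrays). The lowest was Atp5c1, the central shaft, with a mean of -0.15 over the 5 times. All 6 of its 1 h arrays were below 0, from -0.39 to -0.10 with a median of -0.15, and its 6 h arrays lay on both sides, from -0.91 to 0.24. This spot passed the interaction of time and dye (p = 0.0011, n = 30 arrays). Of the members Atp5c1 and the Uqcrc1 spot 1401 alone reached an unadjusted p under 0.05 for a CRH effect over the 5 times, 1 lower and 1 higher, beside 2.47% and 2.91% of all spots.

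No member passed a test that takes the 5 time points as its units. The limma test of a CRH effect, on the 5 averages and adjusted over all 14375 spots at 0.05, called 0 of 47 members and 8 spots in all (0.0557%). The limma tests for a trend with the logarithm of time and for a difference between the late (6, 12 and 24 h) and the early (1 and 3 h) times each called 0 members and 0% of all spots. At an unadjusted p under 0.05 they found 0 members, beside 3.85% higher and 3.3% lower spots for the trend and 1.45% and 1.22% for the phase. The members' lowest adjusted p for a CRH effect was 0.91. No member reached 1.5-fold in its mean at any time with its 6 arrays on 1 side of 0, which 0.563% of all spots did.

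Some members had all 6 arrays of a time point on 1 side of 0. At 1 h 5 members were below 0 on all 6 arrays, beside 3.32% of all spots, and 2 above, beside 2.85%. At 3 h 5 were above, beside 4.63%, and 1 below, beside 2.33%. At 6 h 1 was above (1.29% of all spots) and 2 below (1.41%), at 12 h 1 above (2.6%) and 2 below (1.96%), and at 24 h 0 above (2.66%) and 4 below (1.95%). The 5 of 1 h were Ndufa4, the Sdha spot 20633, the Atp5a1 spot 5867, Atp5c1 and the Atp5o spot 4877, and they were named after their values were seen. Sdha 20633 and Atp5o 4877 are the 2 of them that did not pass the interaction of time with dye. Their ratios still differed between the orientations, with a Cy3 minus Cy5 difference of 0.59 over the 5 times for Sdha 20633 and of -0.28 for Atp5o 4877, each of 1 sign at all 5 times.

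A linear model over the 30 arrays asked whether the ratio changed with time, in the 34 members that showed no interaction of time with dye orientation. Of these, 5 (14.7%) passed at p under 0.01, beside 8.27% of the 12249 spots tested. After Benjamini-Hochberg adjustment over all tested spots 3 members had an adjusted p under 0.05, beside 3.85% of spots. By intensity, 4 of 17 members (23.5%) passed in the bright range, beside 16.8% of all spots there. The 5 spots were 4 of the ATP synthase and 1 of complex I.

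Atp5l, subunit g of the membrane part of the ATP synthase, had the lowest p among the members (p = 8.26e-10, n = 30 arrays, adjusted p = 2.02e-06). Its arrays ranged from -0.50 to 0.02 with a median of -0.18 at 1 h, and from -0.03 to 0.50 with a median of 0.23 at 3 h. They ranged from -0.51 to -0.05 with a median of -0.33 at 6 h, from -0.39 to 0.05 with a median of -0.19 at 12 h, and from -0.49 to -0.05 with a median of -0.21 at 24 h. The mean was below 0 at 4 times and above it only at 3 h, when it was 0.25 ± 0.23 (SD, n = 6 arrays) or 1.19-fold higher. Split by the dye of the treated sample, this 3 h mean was 0.044 for Cy3 and 0.45 for Cy5, so most of it came from the Cy5 arrays. The Cy3 minus Cy5 difference was -0.31 over the 5 times and below 0 at each. Within each orientation 3 h still had the highest mean and the only mean above 0. All arrays of 6 h and of 24 h were below 0. The 3 h arrays did not overlap with those of 6 h or 24 h, though the lowest 3 h array lay close to the highest of each.

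Atp5l is among the brightest spots of its print-tip block, 7th of 247. In the authors' deposited ratios its values correlated with the recomputed ones at r = 0.70 across the 30 arrays. With the deposited ratios the mean was 0.039 at 3 h in place of 0.25, and the time test gave p = 0.015 (n = 30 arrays). Its means kept their signs at all 5 times in 6 ways of processing, from -0.20 to -0.12 at 1 h, from 0.039 to 0.34 at 3 h and from -0.32 to -0.19 at 6 h. With centring on the median and no curve, Atp5l passed the interaction with the dye (p = 0.00011, n = 30 arrays). The Ndufv1 spot 20088, 6th of 291 in its block, had an r of 0.67, and the other 35 of 37 members in the deposited table had r from 0.946 to 0.997. Without the 3 h arrays the time test of Atp5l gave p = 0.14 (n = 24 arrays).

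**Figure D3:**
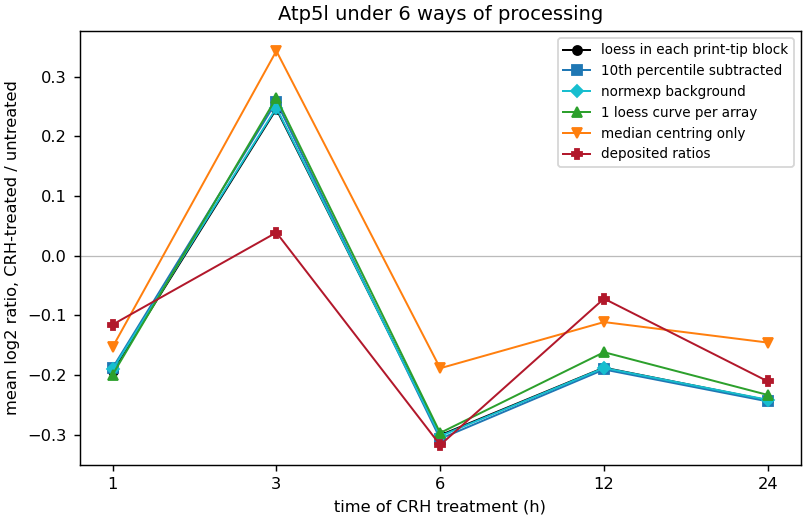
Mean log2 ratio of the Atp5l spot over 6 arrays against time, under 6 ways of processing the same arrays. The sign is the same in all 6 ways at each time, and the deposited ratios give 0.039 at 3 h where the others lie between 0.25 and 0.34.

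Atp5j2, subunit f of the membrane part, had arrays from 0.12 to 0.42 with a median of 0.27 at 3 h, all above 0. Its 12 h arrays ranged from -0.17 to 0.03 with a median of -0.08, and its 1 h arrays from -0.44 to 0.23 with a median of -0.19. The 3 h arrays lay above all those of 12 h, and at 24 h the mean was again above 0, at 0.17. The time test gave p = 0.00031 (n = 30 arrays, adjusted p = 0.016), and p = 0.0002 with the deposited ratios. Without the 3 h arrays it gave p = 0.018 (n = 24 arrays).

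Atp5o, the stalk subunit that joins head and membrane part, was on 2 spots. On spot 4877 the 1 h arrays ranged from -0.31 to -0.07 with a median of -0.19, and the 3 h arrays from -0.04 to 0.42 with a median of 0.19. These did not overlap. The time test gave p = 0.0019 (n = 30 arrays, adjusted p = 0.049), and p = 0.26 without the 3 h arrays. It missed 0.01 with the deposited ratios and with 1 loess curve per array (p = 0.011 and p = 0.014, n = 30 arrays). A single array decided the call, since without replicate 5 of 6 h the spot passed the interaction of time with dye (p = 0.0037, n = 29 arrays) and left the time test. Without all arrays numbered 2 or all numbered 6 it missed 0.01 (p = 0.010 and p = 0.015, n = 25 arrays). On spot 23848 the means were -0.22 at 1 h and 0.31 at 3 h, with arrays from -1.02 to 0.56 and from -0.02 to 0.64, and the time test gave p = 0.048 (n = 30 arrays), which missed 0.01. Both spots had a higher mean at 3 h than at 1 h.

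Atp5g1, another gene for the ring subunit c, had 3 h arrays from 0.11 to 0.47 with a median of 0.23, all above 0. Its 1 h arrays spread from -1.25 to 0.72 with a median of -0.35, and 5 of the 6 were below 0. The 3 arrays of 1 h with CRH-treated RNA in Cy3 were the 3 lowest. The time test gave p = 0.0098 (n = 30 arrays, adjusted p = 0.12), and p was between 0.011 and 0.018 in the 5 other ways of processing, all of which missed 0.01. The call was lost on leaving out any of 25 of the 30 single arrays, and with the day of quantification or the replicate number as a block (p = 0.17 and p = 0.018, n = 30 arrays).

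Ndufs4 had its highest mean at 12 h, when its arrays ranged from 0.17 to 0.58 with a median of 0.33, all above 0. Its 6 h arrays ranged from -0.37 to 0.21 with a median of -0.09, and the 1 h arrays from -0.39 to 0.14 with a median of -0.01. The 12 h arrays overlapped with those of 6 h and lay above those of 1 h. The time test gave p = 0.0071 (n = 30 arrays, adjusted p = 0.1), and p = 0.22 without the 12 h arrays. It missed 0.01 with 1 loess curve per array and with centring on the median (p = 0.02 and p = 0.014, n = 30 arrays). It also missed 0.01 with the day of quantification or the replicate number as a block (p = 0.059 and p = 0.014, n = 30 arrays). Leaving out any of 10 of the 30 single arrays lost the call, with p up to p = 0.023 without replicate 3 of 12 h (n = 29 arrays). The calls of Atp5l and Atp5j2 held on leaving out each of the 30 single arrays in turn.

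**Figure D4:**
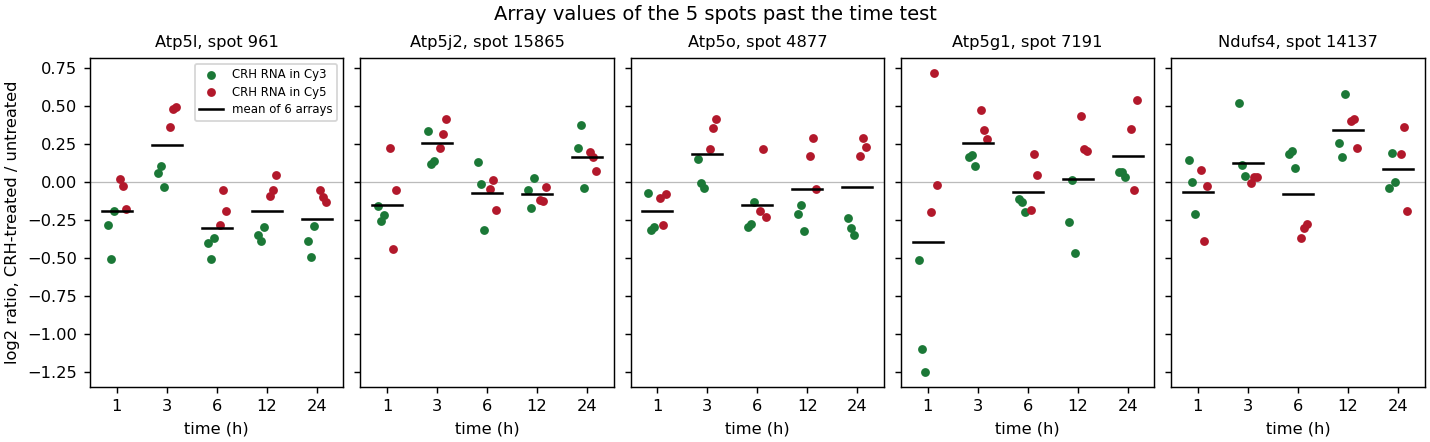
Log2 ratio on each array (points, by the dye of the CRH-treated RNA) and the mean of 6 arrays (bars) against time for the 5 member spots past the time test. The 4 ATP synthase spots have their highest mean at 3 h and Ndufs4 has it at 12 h.

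Over all 47 members the highest of the 5 means fell at 3 h for 21 spots and the lowest at 1 h for 22. Among all spots 17.5% had their highest mean at 3 h and 25.1% their lowest at 1 h. Of the 47 members, 11 were highest at 24 h, beside 18.998% of all spots, and 10 lowest at 6 h, beside 13.767%.

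Several genes were spotted more than once under the same name, which gives a repeat of the measurement with other clones on other parts of the same arrays. There were 17 pairs of measured spots for 10 genes. The 2 spots of a pair lay on the same side of 0 in 43 of 85 comparisons over time points. Across the 30 arrays the correlation of a pair ranged from -0.62 to 0.87 with a median of -0.020, and after each orientation's mean was taken off it ranged from -0.25 to 0.61 with a median of 0.0060. The highest was that of the 2 Cycs spots (r = 0.87). These correlations are descriptions, since the points share arrays and dyes.

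The 4 measured spots of Uqcrc1 had means at 3 h of 0.29, 0.43, 0.03 and 0.15 (spots 1401, 6033, 12216 and 15134), all above 0. At 1 h they were 0.0037, -0.36, 0.02 and -0.04. Atp5pb encodes the peripheral stalk subunit b, and its spots 846 and 22625 were below 0 at 1 h (-0.16 and -0.13) and above it at 3 h (0.19 and 0.23). The remaining spot, 1681, had 0.20 at 1 h and -0.14 at 3 h. The spots of 1 name thus gave values in both directions for Atp5pb, Sdha and Cox7a2l, and at 1 h for Uqcrc1. A ratio of a single spot cannot be taken as that of the gene.

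**Figure D5:**
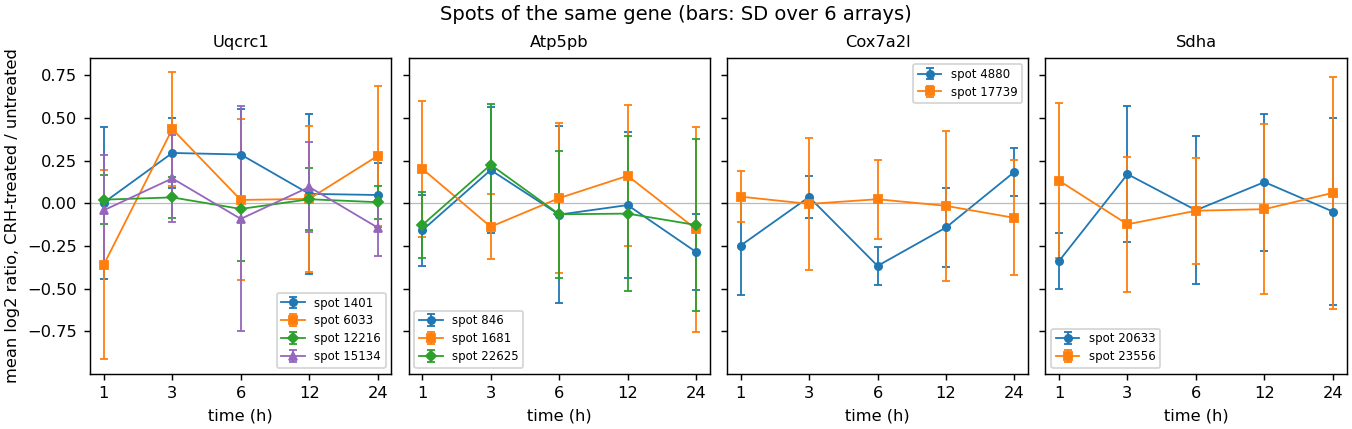
Mean log2 ratio against time for the repeated spots of Uqcrc1, Atp5pb, Cox7a2l and Sdha, with bars for the SD over 6 arrays. The 4 Uqcrc1 spots are all above 0 at 3 h, and the spots of each of the 4 genes lie on both sides of 0 at 1 h.

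Many members depended on the dye. The interaction of time with dye orientation was passed by 13 of the 47 members (27.7%) at p under 0.01, beside 14.8% of all spots. In the bright range it was passed by 30.9% of all spots and 37.0% of the members. In the middle range it was passed by 8.66% of all spots and by 3 of 11 members (27.3%). In the dim range it was passed by 4.82% of all spots and by 0 of 9 members. The widest difference between orientations among the members was that of Cycs on spot 18091, where the mean of the Cy3 arrays exceeded that of the Cy5 arrays by 1.92 at 6 h and by 1.01 over the 5 times. Its arrays of 6 h ranged from -1.10 to 1.15 with a median of -0.02, with the 3 of each orientation on opposite sides of 0. The Cycs spot 18386 differed by 1.05 at 6 h. Both Cycs spots reached the scanner limit of 65000 on 3 channels, Atp5a1 5867 on 4 and Cox6c on 11. In size the dye difference of a member had a median of 0.31 over the 5 times, and its mean ratio a median of 0.10. All spots had nearly the same medians, 0.29 and 0.098, and the bright range had 0.35 and 0.098. The other spots past the interaction were Ndufa4, the Ndufs3 spot 21956, Ndufv2, the Uqcrc1 spot 15134, Cox6a1, Cox6c, the Cox7a2l spot 4880, Cox7c, Atp5a1 5867, Atp5c1 and Atp5pb 846. They are named here to account for each member.

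With 1 dye orientation alone, the CRH effect test called 10 of 47 members on the 3 Cy3 arrays of each time, named for the dye of the treated RNA, beside 22.8% of all spots. On the Cy5 arrays it called 12, beside 29.6%. The members' shares, 21.3% and 25.5%, lay near these. Of these, 5 members were called in both, and all 5 had opposite signs. The median of the members kept its sign in each orientation at 1 h (-0.11 and -0.059) and at 3 h (0.067 and 0.081). Without the 13 spots past the interaction it was -0.12 at 1 h and 0.092 at 3 h.

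Other mitochondrial genes were taken from lists by name. The list for the pyruvate dehydrogenase complex and the citric acid cycle had 20 measured spots of 30. By its name starts it also holds dihydrolipoamide branched chain transacylase E2 (spot 5640) and pyruvate dehydrogenase kinase 3 (spot 8556). It further holds the NADP+ isocitrate dehydrogenase 2 (spots 4730 and 9314, the latter past the time test). The median of the 20 spots was -0.20 at 1 h and 0.10 at 3 h, with 14 of 20 below 0 at 1 h and 14 above 0 at 3 h. Of all spots, 48.9% were below 0 at 1 h and 44.9% above 0 at 3 h. Of the 15 without the interaction, 6 passed the time test, beside 8.27% of all spots tested. The adjusted p was under 0.05 for 3 of the 15, beside 3.85% of all spots tested. The 3 were isocitrate dehydrogenase 3 gamma (spot 1324, adjusted p = 0.02), which was highest at 3 h with 0.47, the GDP-forming succinate-CoA ligase alpha subunit (spot 22037, adjusted p = 0.033), which was lowest at 1 h with -0.28, and dihydrolipoamide dehydrogenase (spot 8536, adjusted p = 0.0087), which was lowest at 24 h with -0.37. The 6 thus did not share 1 course, and fumarate hydratase, which passed the interaction, went from 0.38 at 1 h to -0.52 at 3 h.

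Of the carriers and outer membrane channels 2 of 7 spots were measured. The voltage-dependent anion channel 3 passed the time test (spot 6169, adjusted p = 0.016), with -0.30 at 1 h and 0.36 at 12 h. For electron entry, coenzyme Q and assembly all 9 spots were measured, 1 of 7 without the interaction passed, and the medians were -0.030 and -0.015 at 1 and 3 h. That spot was for optic atrophy 1, which shapes the inner membrane (spot 22488, 0.37 at 3 h, adjusted p = 0.073), and 2 further spots of the gene did not pass. Regulators of mitochondrial biogenesis had 12 of 15 spots measured. Of 11 without the interaction 0 passed, and the medians were 0.031 at 1 h and -0.095 at 3 h. Mitochondrial redox enzymes had 8 of 8 measured, 0 of 7 passed and the medians were -0.10 and -0.013. Of all spots tested, 8.27% passed the time test, and 3.85% had an adjusted p under 0.05 in it. No spot of these 5 lists met the size rule (0.563% of all spots). None had an adjusted p under 0.05 for a CRH effect (0.0557%).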

How the data were processed

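The authors deposited the scanner intensity of every spot and its local background for both dyes, quantified with QuantArray, and no background was subtracted here. They also deposited log2 ratios for 12593 spots, made by removal of the lowest 10% of intensities and a loess fit in each of 48 print-tip blocks. They served as an alternative only, and across spots they correlated with the ratios used here at r from 0.979 to 0.992.

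Of 24192 spots, 1170 empty and 192 control spots were left out. The log2 ratio of the spots above the lowest 10% was corrected by a loess curve (span 0.75, degree 2, symmetric, 4 iterations) in each block and turned to CRH-treated over untreated. Precision between hybridisations is limited by the number of arrays, and 1 pair of extracts per time point gives none between cultures. Symbols were assigned from the spot names by standard nomenclature, and all were found in RefSeq. Ndufa4 was kept under complex I, as its spot name has it, and the medians and counts by complex depend on that placing.

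On the 30 arrays, a linear model per spot gave F tests of the time (5 levels) by dye interaction and, where that was not passed, of time with dye in the model, both at p under 0.01. Tests with the time points as units used limma 3.58.1 (lmFit, eBayes) on the 5 averages of both orientation means, at an adjusted p under 0.05. All fits and Benjamini-Hochberg adjustments were made over the whole table in R 4.3.3. Figures were drawn with matplotlib 3.10.9 in Python 3.11.15. Scripts were tested on simulated data.

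The members, gene lists and tests were chosen with earlier results of these data known. Genes were described by a rule: every member past the time test, an adjusted limma test or the size rule; in each complex the highest and lowest in mean ratio (by spot and by gene); Atp5l, Cox7a2l and complex II; and genes with 3 or more measured spots. The biogenesis list holds YY1 associated factor 2, which its name start matched. Alternatives were other background corrections, filters and normalizations, the deposited ratios, 1 dye orientation, other time terms and blocks, and leaving out arrays or time points. A further 3, marked as such in the closing section, were added after seeing the data.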

Additional observations from a re-analysis of the deposited data

Results flagged for a closer look

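Among 140 groups of 6 arrays examined for the spots of the genes described singly and the members' medians, 5 held an array that stood apart from the rest by Dixon's criterion, and chance gives about 1 in 20. For the Atp5o spot 4877 at 6 h, replicate 5 had 0.22 while the other arrays lay between -0.30 and -0.13. For Ndufs4 at 3 h, replicate 1 had 0.52 and the others lay between -0.0065 and 0.12. For the Uqcrc1 spot 15134 at 3 h, replicate 2 had 0.64 and the others lay between -0.078 and 0.18. For the Atp5o spot 23848 at 24 h, replicate 1 had -0.88 and the others lay between -0.24 and 0.037. For Ndufaf1 at 24 h, replicate 5 had -0.27 and the others lay between 0.051 and 0.23.

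The ratio differed between time points by the linear model for 5 spots. In models with n = 30 arrays it was p = 8.26e-10 for Atp5l, 0.00031 for Atp5j2, 0.0019 for Atp5o, 0.0071 for Ndufs4 and 0.0098 for Atp5g1.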

How the results depend on the processing

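The members' median moved by less than the SD of the array medians in every setting run at 3, 6, 12 and 24 h, and in all but 2 at 1 h, when it was -0.072 without the filter on dim spots and -0.059 on the Cy5 arrays alone. Without 1 replicate or array it ranged from -0.14 to -0.10 at 1 h, from 0.049 to 0.13 at 3 h, from -0.079 to -0.053 at 6 h, from -0.020 to -0.00031 at 12 h and from -0.020 to 0.016 at 24 h.

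The time test called 3 of 29 members with the deposited ratios, beside 8.14% of all spots. Of the spots past the main test, Atp5j2 and Ndufs4 were among these 3, while Atp5l, Atp5o 4877 and Atp5g1 were not. The remaining call was on another member. The time test called 3 of 35 without the 3 h arrays (6.04% of all spots), 3 of 36 without 12 h (7.95%), 8 of 40 without 6 h (9.54%) and 8 of 38 without 24 h (7.77%). It called 1 of 45 with time in hours as a number (3.48%) and 3 of 34 with the day of quantification as a block (2.73%). Without 1 replicate or array it called from 3 to 8, beside 5.76% to 8.95%. Among single arrays, replicate 5 of 6 h and replicate 5 of 24 h moved the count most, to 3 and to 8, beside 8.26% and 8.36%. Of the settings added after seeing the data, testing all measured members whatever their interaction gave 9 of 47 (9.86%), and keeping spots dim in at most 1 channel gave 6 of 43 (7.6%). The third, leaving out the members past the interaction, left the medians within the spread. Same-numbered arrays of different time points did not deviate together (r from -0.025 to 0.052 over 60 pairs), so they share only a number, and with a replicate block in place of the dye the time test called 3 of 34 members, beside 7.47% of all spots.

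The interaction called 8 of 37 members with the deposited ratios, 2 with time in hours as a number and from 4 to 13 without 1 replicate. In the main setting it called 13 of 47, beside 14.8% of all spots. The share of all spots is not given for the other settings, so their counts have no comparison. The CRH effect called 10 members on the Cy3 and 12 on the Cy5 arrays alone, beside 22.8% and 29.6% of all spots. Without 1 replicate it called from 0 to 0, as did trend, phase and size. The size rule held for 1 member with the 10th percentile subtracted (Uqcrc1 6033, 0.59 at 3 h), for 1 without the filter (Cox8b, -0.63 at 24 h), and for 11 and 6 on the Cy3 and Cy5 arrays alone. The share of all spots that met the size rule was not counted in these settings, so these counts have no comparison. The trend and phase tests called 0 members in every setting run. The causes of these differences were not tested.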
